A study of Mus musculus with 10 samples.

Results

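The libraries described here are the 5 empty vector (EV) controls of a series of 10 RNA-seq libraries from OP9 cells, a mouse bone marrow stromal line. They were taken by their labels and not by any measured value: 3 EV libraries accompany 3 Drosha knockout libraries in batch 2, and 2 EV libraries accompany 2 Dicer1 knockout libraries in batch 1. All 10 came from cells given 1 µM rosiglitazone from full confluence onwards for 10 days, and the labels give the EV cells the genotype WT, so every group shares the drug and the time point. The labels call the cells mesenchymal stem cells. They leave unsaid whether each replicate was its own culture, whether a knockout line was 1 clone, which EV cells were the parent of which knockout, or which of the RNA kits and sequencers they name (2 extraction kits, 3 instruments) served which library.

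OP9 cells are best known as a stromal layer that supports blood cell development in culture and as a line that turns readily into fat cells. Rosiglitazone is a thiazolidinedione that binds and activates PPARγ, the nuclear receptor that, together with C/EBPα, switches on the genes of fat storage. A culture driven this way is usually mixed: cells that have filled with lipid express perilipins, fatty acid binding protein and adiponectin, while cells that have not keep a stromal program of collagens, chemokines and, where contact inhibition is incomplete, cell division.

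The values are TPM, a transcript abundance corrected for length in which every library sums to the same total, so depth could not be read from them and a gene's value also depends on what the rest of the library holds. A difference between batches is written as batch 2 minus batch 1 on the log2(TPM + 1) scale, which understates the change of low genes. Each batch is 1 table and 1 experiment, so cells, handling, library chemistry and sequencer cannot be told apart as sources of a difference, and 3 against 2 libraries cannot give an exact permutation p below 0.1. For that reason no p-value is given between batches. A gene is called apart where the 3 batch 2 values and the 2 batch 1 values do not overlap and the mean log2 difference is at least 1 in size, among genes that reach 1 TPM in 2 or more of the 5 EV libraries. A gene that enters through the libraries of 1 batch alone can only be called higher in that batch, which holds for every list below.

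The targeted genes were looked at in the whole series first. Drosha RNA, of the nuclear enzyme that cuts primary microRNA transcripts, stood at 14.8, 13.7 and 15.6 TPM in the Drosha knockout libraries, against 38.9, 39.6 and 38.6 TPM in the batch 2 controls, with no overlap. Dicer1 RNA, of the cytoplasmic enzyme that cuts the precursors, stood at 19.3 and 14.9 TPM in the Dicer1 knockout libraries, against 23.8 and 17.3 TPM in the batch 1 controls, which overlap. These are whole-gene values, and a frameshift or a small deletion need not lower them. Y-linked RNA, looked up after values had been seen, separated the Dicer1 knockout libraries from their controls: Ddx3y had 4.76 and 3.94 TPM in the knockout libraries, against 0.525 and 0.246 TPM in the batch 1 controls, and stayed below 0.2 TPM in all of batch 2. Between 11554 and 12016 genes reached 1 TPM in an EV library. Batch 2 replicate 3 stood apart from the other 2 batch 2 controls in ribosomal RNA rows: Mir6236 and Rn18s together took 0.121%, 0.0874% and 1.37% of TPM in the batch 2 controls, against 4.32% and 5.15% in the batch 1 controls.

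The cultures carried the adipocyte program in all 5 libraries, with Pparg and Fabp4 not apart between batches and Lpl and Adipoq apart. Pparg, the receptor for rosiglitazone, stood at 134, 133 and 133 TPM in the batch 2 controls, against 120.4 and 123 TPM in the batch 1 controls (log2 difference 0.13). Fabp4, the fatty acid carrier of fat cells and a direct PPARγ target, stood at 894, 900.3 and 894 TPM in the batch 2 controls and 694 and 614 TPM in the batch 1 controls (0.46). Both genes were higher in every batch 2 control without being far enough apart to be called. Lpl, the lipase that releases fatty acids from circulating lipoproteins, had 491, 469 and 491 TPM in the batch 2 controls, against 181 and 146 TPM in the batch 1 controls (1.57). Adipoq, which encodes the hormone adiponectin and is made almost only by fat cells, had 231, 239.7 and 233 TPM in the batch 2 controls, against 61.6 and 36.4 TPM in the batch 1 controls (2.28). Lpl and Adipoq were both apart, with Adipoq 4.79-fold higher by the ratio of batch means. In bulk RNA such as this, fewer fat cells and less of the RNA in each fat cell cannot be told apart. Leptin and the brown fat uncoupler were near or at 0: Lep stayed below 0.1 TPM and Ucp1 was listed at 0 in every EV library.

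In the plot of these and other genes by library, the batch 2 values lie close together and the 2 batch 1 controls lie further from each other.

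**Figure D1:**
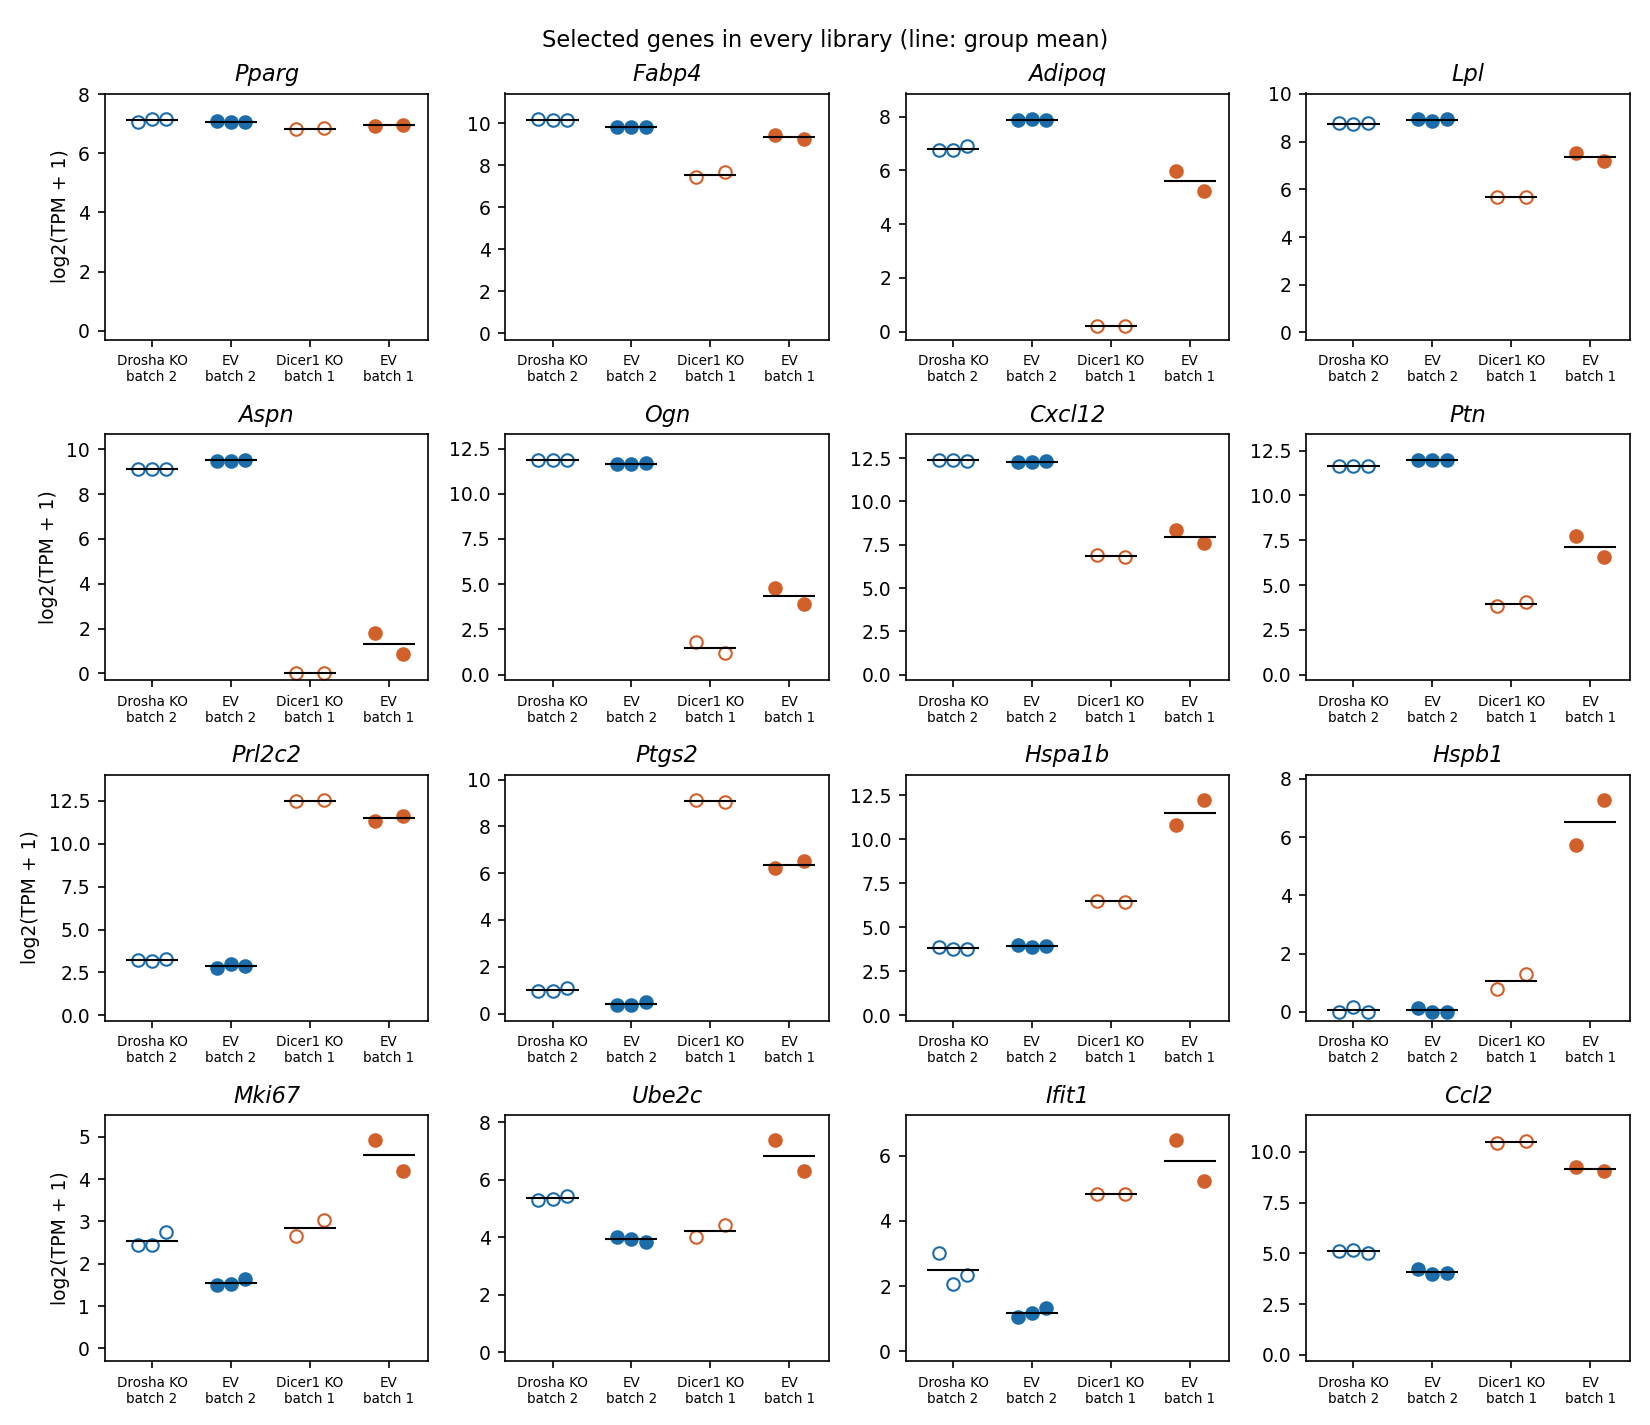
log2(TPM + 1) of 16 genes in every library, 1 point per library with the group mean as a line, each knockout left of its own controls and batch 2 left of batch 1. Pparg sits at about the same height in both sets of controls (filled points), Adipoq and Lpl are higher in the batch 2 controls, and Mki67 and Hspa1b are higher in the batch 1 controls.

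The base of the profile was shared. Of the 100 genes with the highest mean TPM in each batch, 80 were in the top 100 of both. They were 42 ribosomal protein genes, 10 mitochondrially encoded genes, 7 gene models or processed pseudogenes and 21 others, and together they held 28.6%, 29.6% and 28.1% of TPM in the batch 2 controls and 28.2% and 29.8% in the batch 1 controls. Their median difference was 0.26, against -0.05 over the 12295 genes entered. The ribosomal protein pseudogenes and their parents share sequence, so the split of reads between them is uncertain.

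Among the leading genes, ATP6, a mitochondrially encoded subunit of ATP synthase, had 9145, 10532 and 6831 TPM in the batch 2 controls and 7751 and 6673 TPM in the batch 1 controls, which overlap. COX1, the mitochondrially encoded catalytic subunit of cytochrome c oxidase, had 9973, 12150.1 and 7567 TPM in the batch 2 controls and 7896 and 5849.9 TPM in the batch 1 controls, again with overlap. The mitochondrial rows of batch 2 replicate 3 were below those of its 2 fellow replicates for both genes. Eef1a1, the elongation factor that brings aminoacyl-tRNA to the ribosome, had 11036, 11282 and 10666 TPM in the batch 2 controls, against 6338 and 6487 TPM in the batch 1 controls, higher in all 3 (0.78). Fth1, the heavy chain of the iron store ferritin, had 9320.2, 9553 and 8794 TPM in the batch 2 controls, against 5849 and 5587 TPM in the batch 1 controls (0.69). Its light chain partner Ftl1 ran the other way, with 3937, 3904 and 3782 TPM in the batch 2 controls, against 6060.0 and 6954 TPM in the batch 1 controls (-0.74). Neither ferritin gene reached a log2 difference of 1.

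Most ribosomal proteins of the leading 15 were nearly level. Rps24 had 6262, 6883 and 6379 TPM in the batch 2 controls and 6060.1 and 6630.4 TPM in the batch 1 controls, and Rps15, Rpl41, Rps10, Rpl32, Rps12, Rps14 and Rpl23a had differences of -0.03, 0.09, -0.09, -0.10, 0.10, 0.0026 and 0.66. The gene model Gm10275 had a difference of 0.28. Over all 82 ribosomal protein symbols entered, 2 were apart and higher in batch 2 and 2 apart and higher in batch 1, with a median of 0.23, where 13.0% of the 12295 genes were apart and higher in batch 2 and 15.9% apart and higher in batch 1. The members apart were the paralog Rpl22l1 (2.43), Rpl5 (-1.44), Rpl12 (-1.41) and Rps3a3 (1.13).

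The common abundant genes outside these classes were mostly cytoskeletal, secreted or housekeeping genes. Vim, the intermediate filament of mesenchymal cells, had 3286, 3106 and 3203 TPM in the batch 2 controls and 3111 and 3057 TPM in the batch 1 controls. Fn1, the adhesive matrix protein fibronectin, had 2414, 2136 and 2876 TPM in the batch 2 controls and 2008 and 1929 TPM in the batch 1 controls (0.32). S100a4, Lgals1, Tmsb10, Actg1, B2m, Tpt1, Fau, Rack1, Ubb and Eef2 completed this group along with a few others. Of the 80 common genes, 6 were apart, among them the following 5. S100a11, a calcium-binding protein, Bgn, the matrix proteoglycan biglycan, and Myl6, a myosin light chain, were higher in batch 2. Spp1, the secreted phosphoprotein osteopontin, and the Mir6236 row were higher in batch 1.

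Spp1 had 3288, 3373 and 3287 TPM in the batch 2 controls, against 8179 and 7791 TPM in the batch 1 controls (-1.27). Mir6236 had 869, 568 and 10521 TPM in the batch 2 controls, against 39442 and 47616 TPM in the batch 1 controls, so batch 2 replicate 3 stood between the other 2 batch 2 controls and batch 1. The name is that of a microRNA, printed here from RefSeq (GRCm38.p6, chr9:110281353-110281371, plus strand) with the seed, bases 2 to 8, in capitals:
mmu-miR-6236: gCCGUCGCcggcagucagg
A mature microRNA of 19 bases is not what a bead-captured mRNA library measures, and the row moved with Rn18s, the row of 18S ribosomal RNA, which had 336, 306 and 3197 TPM in the batch 2 controls and 3733 and 3858 TPM in the batch 1 controls. Rn7sk, a small nuclear RNA without a poly(A) tail, had 0.828, 1.77 and 15 TPM in the batch 2 controls, against 25.6 and 44.1 TPM in the batch 1 controls, with batch 2 replicate 3 again the highest of its batch. Structural and nonpolyadenylated RNA was split as a list. Of 11 entered, 5 were apart and higher in batch 1, 2 apart and higher in batch 2, and 4 not apart. The list summed to 1892 to 2008 TPM in the batch 2 controls, against 1109.8 to 1159.5 TPM in the batch 1 controls. The part of ribosomal RNA carry-over in the other differences was not tested gene by gene. With these short RNA and ribosomal RNA rows left out and TPM rescaled, an alternative added after the values were seen, 1474 genes were apart and higher in batch 2 and 2168 apart and higher in batch 1.

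Each batch also had 20 genes in its own top 100 alone. In batch 2 these included the chemokine Cxcl12, the growth factor Ptn, the matrix genes Sparc, Col1a2, Ogn, Col6a1 and Col1a1, the protease inhibitor Cst3 and the smooth muscle actin Acta2. In batch 1 they included the chaperones Hsp90ab1, Hspa8 and Hspa1b, the glycolytic enzyme Gapdh, the peroxiredoxin Prdx1, the cytokine Mif, the nucleolar protein Npm1, the lectin Lgals3 and the placental hormone relative Prl2c2. Cst3, the cysteine protease inhibitor cystatin C, had 3155, 3161 and 3068 TPM in the batch 2 controls, against 356 and 385 TPM in the batch 1 controls. Gapdh had 894, 832 and 842 TPM in the batch 2 controls, against 2739.7 and 3798 TPM in the batch 1 controls. A gene often used to normalize other assays thus stood 3.82-fold apart between the 2 sets of controls.

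The common genes were then set against the knockout of their own batch with limma across all genes tested, with Benjamini-Hochberg adjustment and a threshold of 0.05. The EV level chose these genes and also enters the contrast, so the counts are a description. In the Drosha knockout, 7 of the 80 passed as higher and 58 as lower, where 38.2% and 8.13% of the 11850 genes tested passed as higher and lower. In the Dicer1 knockout, 5 passed as higher and 45 as lower, where the shares over 12239 genes were 21.5% and 9.60%. The medians of all genes tested were 0.13 in the Drosha and 0.15 in the Dicer1 comparison, and after median-ratio scaling the calls over all genes split 2313 higher to 2133 lower and 1579 higher to 1580 lower. Without either single Dicer1 knockout library, no gene of the 12239 passed in the Dicer1 comparison (limma), while 2925 and 3129 genes had an unadjusted p under 0.05.

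Actg1, cytoplasmic gamma actin, passed as higher in both. It had 4139, 4329.8 and 4299.6 TPM in the Drosha knockout libraries, against 2971, 2903 and 2871 TPM in the batch 2 controls (log2 fold change 0.55, SE 0.03, limma adjusted p = 1.01e-05). It had 4086 and 3932 TPM in the Dicer1 knockout libraries, against 2535 and 2288 TPM in the batch 1 controls (0.73, SE 0.10, limma adjusted p = 0.00888). Fth1 also passed in both, at 0.28 in the Drosha knockout (limma adjusted p = 0.00146) and 0.81 in the Dicer1 knockout (limma adjusted p = 0.0108). S100a4, a calcium-binding protein of motile mesenchymal cells, passed as lower in the Drosha knockout, with 2291, 2228 and 2067 TPM in the knockout libraries, against 3167, 3273 and 3257 TPM in the controls (-0.56, SE 0.04, limma adjusted p = 3.2e-05). Mir6236 passed as lower in the Dicer1 knockout, at 23044 and 25863 TPM, against 39442 and 47616 TPM in the controls (-0.83, limma adjusted p = 0.0222). The other named calls were Ftl1 higher and Gm7536 and Rpl36a lower in the Drosha knockout, and S100a11 higher and the pseudogenes Rps2-ps10 and Rps26-ps1 lower in the Dicer1 knockout.

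Across all 12295 genes, 1596 (13.0%) were apart and higher in batch 2, 1957 (15.9%) apart and higher in batch 1 (28.9% either way), and 8742 were not apart. Lack of overlap alone was common and says little here, since it held for 80.1% of genes. The Pearson correlation of log2(TPM + 1) across genes, which are not independent replicates, was 0.993 within the batch 2 controls, 0.977 between the batch 1 controls and 0.832 to 0.841 between controls of different batches. A control was closer to the knockout of its own batch (0.981 to 0.984 in batch 2, 0.937 to 0.949 in batch 1) than to the other control. Leaving out single libraries gave 1527 to 1845 genes higher in batch 2 and 1513 to 1988 higher in batch 1.

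**Figure D2:**
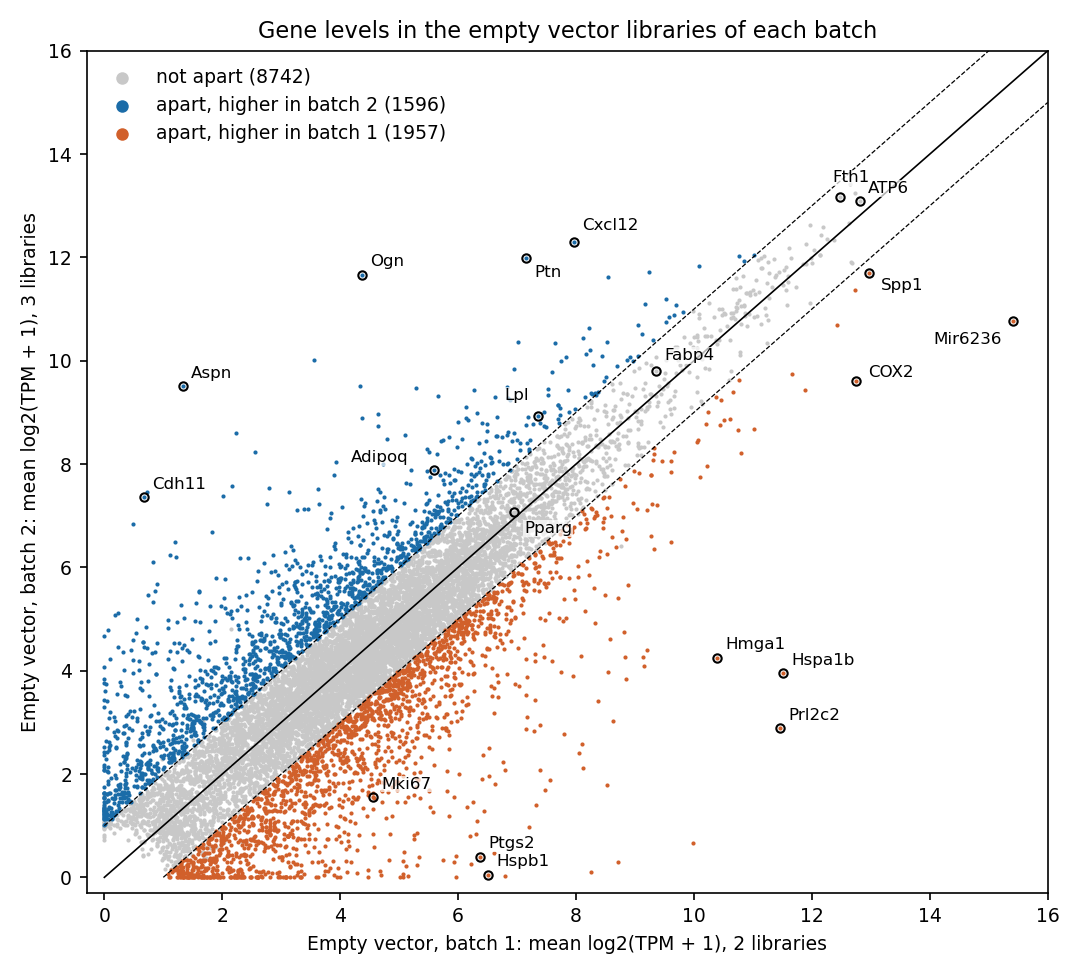
Mean log2(TPM + 1) of each of the 12295 genes in the batch 2 controls (vertical axis) against the batch 1 controls (horizontal axis), with the 1596 genes apart and higher in batch 2 and the 1957 apart and higher in batch 1 in colour. Most genes lie along the diagonal, and the named genes mark the far edges.

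Set out by list, the differences went in opposite directions for different functions. The list counts below stand beside the 13.0% of all genes apart and higher in batch 2 and the 15.9% apart and higher in batch 1. The list medians stand beside -0.05 over all genes. Members of the fatty acid oxidation, adipocyte identity, matrix and blood cell niche lists lay mostly on the batch 2 side, and members of the mitosis, DNA replication, heat shock, immediate early, NRF2, glycolysis, interferon and cytokine lists lay mostly on the batch 1 side. The plot of list members shows each gene of each list.

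**Figure D3:**
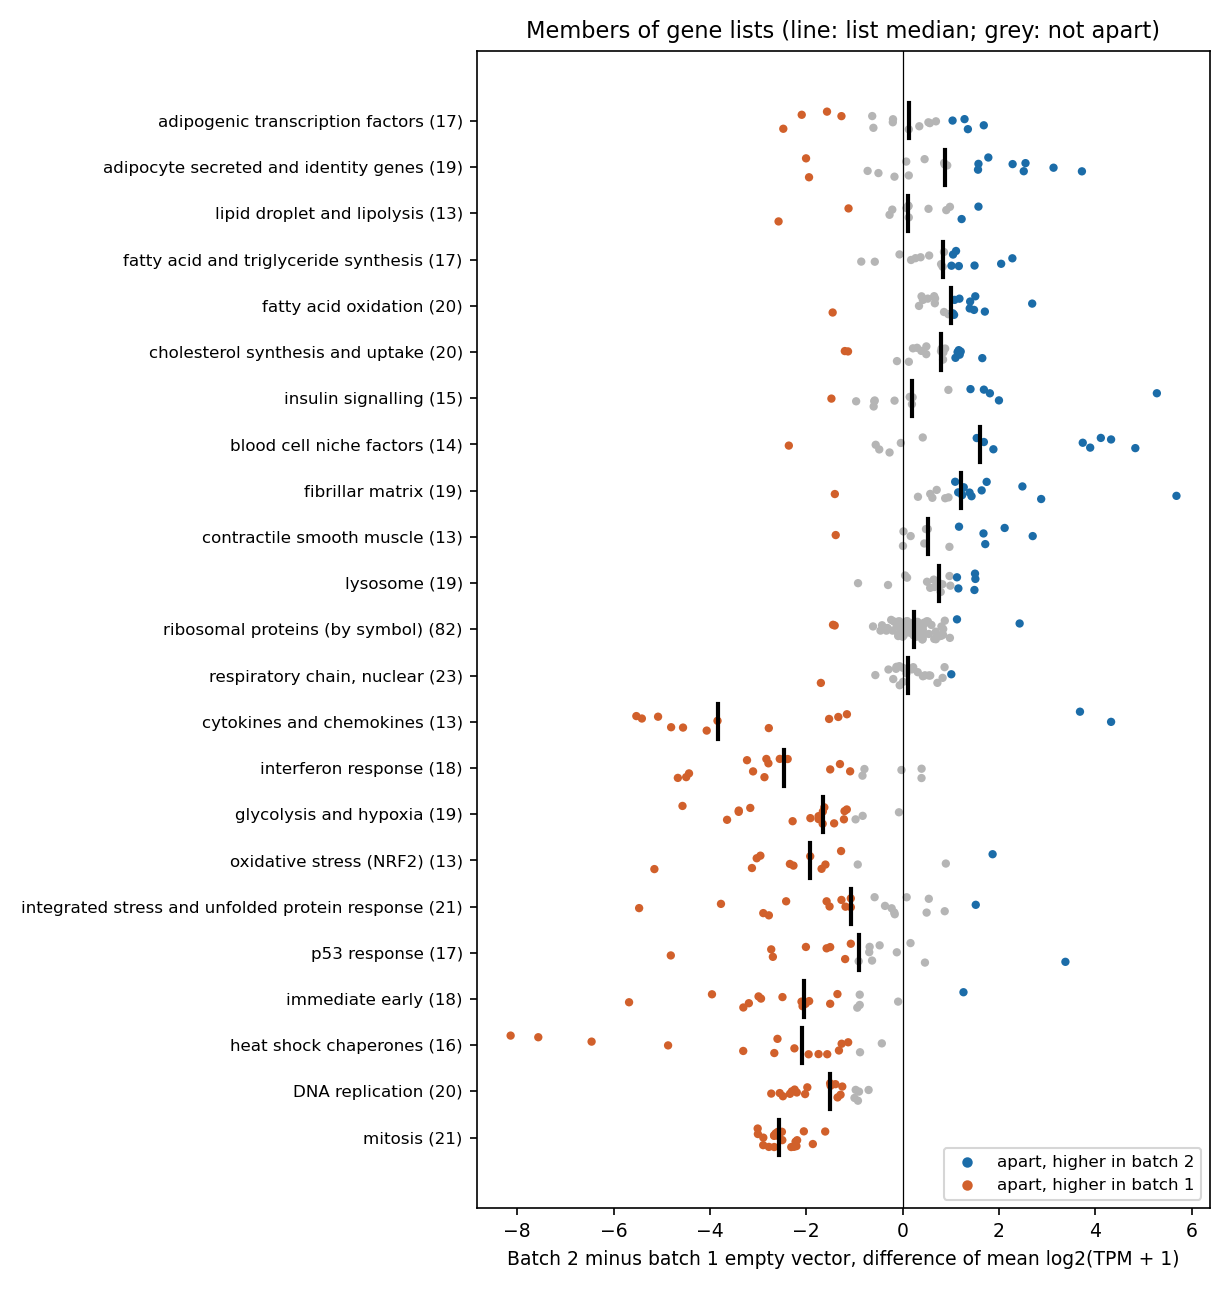
Log2 difference (batch 2 minus batch 1, log2(TPM + 1) scale) of each entered member of the gene lists, 1 point per gene, with the list median marked. Every mitosis gene lies left of -1, and the heat shock points reach -8.14.

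Among the adipogenic transcription factors, 4 of 17 were apart and higher in batch 2 and 4 apart and higher in batch 1, with a median of 0.13 that turned to -0.01 without a filter on low TPM. Cebpb, the early activator that precedes PPARγ in adipogenesis, had 57.3, 52.9 and 52.6 TPM in the batch 2 controls, against 212 and 259 TPM in the batch 1 controls (-2.09). Klf5, another early factor, had 0.533, 0.424 and 0.532 TPM in the batch 2 controls, against 5.92 and 8.99 TPM in the batch 1 controls (-2.48). Both early factors were several-fold higher in each batch 1 control. Cebpa, the partner that keeps the adipocyte program on, had 53, 50.1 and 57.9 TPM in the batch 2 controls and 39.3 and 44.6 TPM in the batch 1 controls (0.35) and was not apart. Rxra, the obligate partner of PPARγ on DNA, had 59.3, 57 and 58.7 TPM in the batch 2 controls, against 23.5 and 20.9 TPM in the batch 1 controls (1.36). The preadipocyte commitment factors Zfp423 (1.29) and Zfp467 (1.69) were also apart and higher in batch 2, as was Stat5a (1.04). Without batch 1 replicate 2 the counts were 3 and 2.

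Of 19 adipocyte identity genes entered, 8 were apart and higher in batch 2 and 2 apart and higher in batch 1 (1 without batch 1 replicate 2), with a median of 0.87. Retn, the hormone resistin of mouse fat, had 20.3, 23.4 and 19 TPM in the batch 2 controls, against 0.84 and 0.484 TPM in the batch 1 controls (3.72). It entered through the batch 2 controls alone, so it could only be called higher there. Aoc3, the amine oxidase of the adipocyte surface, had 124, 113 and 134 TPM in the batch 2 controls, against 16 and 10.9 TPM in the batch 1 controls (3.13). Cfd, the serine protease adipsin, had 44.4, 44 and 45.4 TPM in the batch 2 controls, against 6.26 and 7.33 TPM in the batch 1 controls (2.55). These 3 markers of mature fat cells were thus higher in every batch 2 control, as were Agt (2.52), Adig (1.78) and Cidec (1.57). Rbp4, the retinol carrier secreted by fat and liver, went the other way, with 30.3, 31.1 and 33.7 TPM in the batch 2 controls, against 104 and 149 TPM in the batch 1 controls (-1.94).

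Lipid droplet genes did not share that side. Plin1, the perilipin of mature fat droplets, had 49, 51.2 and 45.5 TPM in the batch 2 controls and 60.3 and 32.4 TPM in the batch 1 controls, where the 2 batch 1 values enclose the others. Plin4 had 129, 127 and 118 TPM in the batch 2 controls, against 62.3 and 44.7 TPM in the batch 1 controls (1.23). Plin2, the droplet coat that nearly all lipid-loaded cells carry, had 159, 160.4 and 162 TPM in the batch 2 controls, against 289 and 424 TPM in the batch 1 controls (-1.12). Hilpda, a hypoxia-inducible inhibitor of the lipase ATGL, had 22.8, 21.5 and 18.1 TPM in the batch 2 controls, against 102 and 162 TPM in the batch 1 controls (-2.57). The list held 2 apart on each side of 13 entered, with a median of 0.12, and without batch 1 replicate 1 or 2 the counts were 4 and 2 or 1 and 1. These counts were near the shares of all genes apart on the batch 2 side (13.0%) and the batch 1 side (15.9%). The lipases Pnpla2 (0.91) and Lipe (0.98) lay just under the size needed.

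Fat uptake, synthesis and burning leaned to batch 2. Of 12 uptake genes, 5 were apart and higher in batch 2 and 2 apart and higher in batch 1 (1 without batch 2 replicate 2), with a median of 0.81. Fabp5 had 92.2, 89.5 and 92.4 TPM in the batch 2 controls, against 23 and 17.2 TPM in the batch 1 controls (2.14). The insulin-regulated glucose transporter Slc2a4 was low in both, at 2.58, 1.72 and 2.12 TPM in the batch 2 controls and 0.141 and 0 TPM in the batch 1 controls. Its ubiquitous relative Slc2a1, by contrast, had 17.7, 17.2 and 16.6 TPM in the batch 2 controls, against 137 and 266 TPM in the batch 1 controls (-3.4). The fatty acid transporter Slc27a1 (2.08) and the activating enzyme Acsl1 (1.45) were apart and higher in batch 2.

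Of 17 lipogenic genes, which make fatty acids and triglyceride, 7 were apart and higher in batch 2 and 0 in batch 1, with a median of 0.83, and the 7 became 4 without batch 1 replicate 2. Scd2, a stearoyl-CoA desaturase, had 436, 425 and 452 TPM in the batch 2 controls, against 90.01 and 88.7 TPM in the batch 1 controls (2.28). Elovl6, which lengthens palmitate, had 22.1, 21.4 and 23.6 TPM in the batch 2 controls, against 5.47 and 3.94 TPM in the batch 1 controls (2.05). Fasn, the fatty acid synthase itself, had 35.1, 29.9 and 38.7 TPM in the batch 2 controls and 26.9 and 19.9 TPM in the batch 1 controls (0.55) and was not apart. Acly, which makes cytosolic acetyl-CoA, had a difference of -0.58, and the NADPH-making malic enzyme Me1 one of -0.86, both on the batch 1 side.

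Fatty acid oxidation was the lipid list with the most members apart: 10 of 20 were apart and higher in batch 2, 1 apart and higher in batch 1, and the median was 1.00. Acadm, the medium-chain acyl-CoA dehydrogenase, had 476, 467 and 443 TPM in the batch 2 controls, against 84.9 and 58.8 TPM in the batch 1 controls (2.69). Etfa, the electron acceptor of those dehydrogenases, had 266, 259 and 256 TPM in the batch 2 controls, against 80.5 and 77.3 TPM in the batch 1 controls (1.71). Ech1 (1.51), Pdk4 (1.48), Decr1 (1.4), Hadh (1.39), Slc25a20 (1.18), Hadha (1.08), Hadhb (1.07) and Eci1 (1.04) made up the rest of the 10. The exception was Cpt1b, the muscle form of the entry enzyme, at -1.45 and below 5 TPM in every EV library.

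Respiratory chain genes were close to level. Of 23 nuclear-encoded subunits entered, 1 was apart on each side and the median was 0.10. Sdha, the flavoprotein of complex II, was higher in batch 2 (1.01), and Cycs, cytochrome c, was higher in batch 1 (-1.7). The Sdha call was lost without batch 2 replicate 1 or batch 1 replicate 2. Of the 13 mitochondrially encoded genes, COX2 (-3.13) and ND6 (-1.14) were apart and higher in batch 1, and the list median was 0.52. COX2 had 953, 970.1 and 518 TPM in the batch 2 controls, against 7647 and 6121 TPM in the batch 1 controls, a larger gap than at any of the other 12 mitochondrial rows.

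Insulin signalling genes were mixed, and sterol genes leaned to batch 2. Irs1, the docking protein of the insulin receptor, had 17.3, 16.7 and 18 TPM in the batch 2 controls, against 4.72 and 3.76 TPM in the batch 1 controls (1.81). Pik3r1, the regulatory subunit of PI3 kinase, had 49.3, 48.8 and 50.7 TPM in the batch 2 controls, against 13.9 and 9.74 TPM in the batch 1 controls (2.000). Insr itself (0.19) and Akt1 (-0.17) were close to level, and the caveolar coat gene Cav1 was higher in batch 1 (-1.48). Of 15 members entered, 5 were apart and higher in batch 2 and 1 apart and higher in batch 1 (2 without batch 1 replicate 2), with a median of 0.19. Of 20 cholesterol genes, 6 were apart and higher in batch 2, among them Dhcr7 (1.65) and Mvk (1.21), and 2 were apart and higher in batch 1, among them Hsd17b7 (-1.13). The list median was 0.80.

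Genes of the stromal program were apart in both directions, with niche factors and fibrillar matrix mostly higher in batch 2. OP9 cells are used as a niche because they secrete factors that hold blood progenitors, and of 14 such factors 8 were apart and higher in batch 2 and 1 apart and higher in batch 1, with a median of 1.61. Cxcl12, the chemokine that retains stem cells in marrow, had 5004, 4889.7 and 5186 TPM in the batch 2 controls, against 326 and 191 TPM in the batch 1 controls (4.33). Ptn, the heparin-binding factor pleiotrophin, had 4073, 4045 and 3996 TPM in the batch 2 controls, against 212 and 93.4 TPM in the batch 1 controls (4.83). Vcam1, the adhesion molecule for blood cell integrins, had 263, 256 and 269 TPM in the batch 2 controls, against 18.2 and 11 TPM in the batch 1 controls (4.11). The mean of Cxcl12 was 19.5-fold, and that of Ptn 26.4-fold, higher in batch 2, and the summed level of the list was 0.980% to 1.01% of TPM in the batch 2 controls, against 0.0573% to 0.0851% in the batch 1 controls. Cxcl12 and Ptn made up most of that sum in the batch 2 controls, so it says little of the other members.

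Further niche genes on the batch 2 side were the receptor ligands Angpt1 (3.89), Jag1 (1.89) and Igf1 (1.69), the morphogen Bmp4 (3.74) and the lymphoid cytokine Il7 (1.54). Kitl, the stem cell factor that blood progenitors need, had 71.8, 71.6 and 77.3 TPM in the batch 2 controls and 48.4 and 61.9 TPM in the batch 1 controls (0.42) and was not apart. Il34, a ligand of the CSF1 receptor, was apart and higher in batch 1, with 5.73, 5.01 and 5.09 TPM in the batch 2 controls, against 25.7 and 37.9 TPM in the batch 1 controls (-2.36). OP9 cells derive from mice that lack working CSF1 protein, and Csf1 RNA was present at 99.6, 94.5 and 101 TPM in the batch 2 controls and 164 and 128 TPM in the batch 1 controls.

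Fibrillar matrix genes were largely higher in batch 2: 12 of 19 were apart on that side and 1 on the other, with a median of 1.21. The 2 chains of type I collagen, the main fibre of connective tissue, were both among them. Col1a2 had 3400.3, 3254 and 3459.9 TPM in the batch 2 controls, against 718 and 502 TPM in the batch 1 controls (2.49), and Col1a1 had 1904, 1777 and 1972 TPM in the batch 2 controls, against 810.1 and 816 TPM in the batch 1 controls (1.21). Col3a1, of the reticular fibres that mark early fibroblasts, had a difference of 2.88, and Sparc, a collagen-binding glycoprotein, one of 1.75. Postn, the matricellular protein periostin, had 305, 282 and 318 TPM in the batch 2 controls, against 5.998 and 3.94 TPM in the batch 1 controls (5.68). Col6a3 was the exception, with 257, 245 and 296 TPM in the batch 2 controls, against 788 and 630.4 TPM in the batch 1 controls (-1.41), although its partner chains Col6a1 (1.39) and Col6a2 (1.27) were higher in batch 2.

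Basement membrane genes were split, with 3 of 10 apart and higher in batch 2 and 1 apart and higher in batch 1 and a median of 0.04 that turned to -0.03 without batch 2 replicate 3. Nid2, a nidogen that links laminin to collagen IV, had 399, 373 and 396 TPM in the batch 2 controls, against 4.09 and 3.39 TPM in the batch 1 controls (6.37), while its relative Nid1 had a difference of 0.02. Col15a1 lay on the batch 1 side (-2.8) and Col18a1 on the batch 2 side (1.32). The common chains Col4a1 (-0.37) and Lamb1 (-0.01) were not apart.

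Matrix proteases and their inhibitors were divided, with 8 of 14 apart and higher in batch 2 and 4 apart and higher in batch 1. Mmp2, the gelatinase, had 1354, 1292 and 1315 TPM in the batch 2 controls, against 144 and 114 TPM in the batch 1 controls (3.36). Its membrane-bound activator Mmp14 (2.18) and its inhibitor Timp2 (2.23) were on the same side. Timp1 had 89.3, 91 and 87.9 TPM in the batch 2 controls, against 843 and 716 TPM in the batch 1 controls (-3.11). The inhibitors were therefore not all on 1 side: Timp2 was higher in batch 2, and Timp1 and Timp3 (-1.91) in batch 1.

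Contractile genes, which mark myofibroblast-like stroma, were more often higher in batch 2, with 5 of 13 apart on that side and 1 on the other (0 without batch 1 replicate 1) and a median of 0.52. Acta2, smooth muscle actin, had 2312, 2317 and 2436 TPM in the batch 2 controls, against 941 and 573 TPM in the batch 1 controls (1.68). Myl9, the regulatory myosin light chain, had 1338, 1267 and 1287 TPM in the batch 2 controls, against 242 and 163 TPM in the batch 1 controls (2.7). Tagln (0.52), Cald1 (0.02) and Tpm2 (0.01) were not apart. Among YAP targets, Ccn2, a connective tissue growth factor, had 19.2, 17.6 and 19.1 TPM in the batch 2 controls, against 249 and 294 TPM in the batch 1 controls (-3.79), and Tgfb2 ran the other way (2.33). That list held 1 apart and higher in batch 2 and 4 apart and higher in batch 1 of 10 (2 without batch 1 replicate 1), with a median of 0.15.

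Surface markers of mesenchymal progenitors were also found on both sides. Pdgfra had 218, 215 and 228 TPM in the batch 2 controls, against 52.1 and 49.4 TPM in the batch 1 controls (2.1), and Pdgfrb had 199, 191 and 197 TPM in the batch 2 controls, against 44.2 and 28.5 TPM in the batch 1 controls (2.43). Both are receptors for platelet-derived growth factor and mark fat progenitors. Ly6a, the stem cell antigen Sca-1, had 47.8, 49.9 and 50.7 TPM in the batch 2 controls, against 587 and 373 TPM in the batch 1 controls (-3.22). Cd44 (-1.32) and Cspg4 (-2.13) were likewise higher in batch 1. Of 8 entered, 2 were apart and higher in batch 2 and 4 apart and higher in batch 1.

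Genes of bone and cartilage, the other fates of marrow stroma, were found on both sides. Runx2, the bone master regulator, had 36.4, 37 and 37.7 TPM in the batch 2 controls, against 16.7 and 18.1 TPM in the batch 1 controls (1.05). Alpl, alkaline phosphatase, had 7.15, 8.55 and 8.96 TPM in the batch 2 controls, against 69.8 and 53.7 TPM in the batch 1 controls (-2.76). Dmp1, an osteocyte matrix protein, had 26.8, 25.8 and 27.8 TPM in the batch 2 controls, against 0.0318 and 0.0605 TPM in the batch 1 controls (4.73). The osteoblast list held 3 and 2 of 6 apart on the batch 2 and batch 1 sides, with a median of 0.78 that turned to -0.11 at a minimum of 5 TPM. Col2a1, the collagen of cartilage, had 46.5, 47.4 and 47.9 TPM in the batch 2 controls, against 376 and 266 TPM in the batch 1 controls (-2.72), while its regulator Sox9 had a difference of 0.41.

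Proliferation genes differed uniformly. All 21 mitosis genes entered were apart and higher in batch 1, with differences from -3.01 to -1.61 and a median of -2.57, and they stayed so without either batch 1 control (medians -2.10 and -3.08). Mki67, the standard marker of dividing cells, had 1.83, 1.86 and 2.14 TPM in the batch 2 controls, against 29.4 and 17.4 TPM in the batch 1 controls (-3.01). Aurka, the centrosomal kinase of the spindle, had 3.46, 2.66 and 2.92 TPM in the batch 2 controls, against 35.5 and 27.2 TPM in the batch 1 controls (-3.003). Ube2c, the ubiquitin conjugating enzyme that serves the anaphase-promoting complex, had 15.3, 14.5 and 13.4 TPM in the batch 2 controls, against 164 and 78.1 TPM in the batch 1 controls (-2.89). Cdc20, the activator of that complex, had 4.4, 4.24 and 3.91 TPM in the batch 2 controls, against 51.1 and 23.1 TPM in the batch 1 controls (-2.77). In each case the batch 2 values were low and close together, and batch 1 replicate 1 was the highest of all 5.

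Mitotic genes are known for a shared promoter layout, a cell cycle genes homology region downstream of CCAAT boxes, and the starts of 2 members are printed with both kinds of letters marked. Both are the 150 bases before the transcription start, 5′ to 3′ on the gene's strand, from RefSeq (GRCm38.p6), Cdc20 at chr4:118437344-118437493 on the minus strand and Ube2c at chr2:164769779-164769928 on the plus strand. Capitals mark CCAAT or TTTGAA read on either strand:
Cdc20: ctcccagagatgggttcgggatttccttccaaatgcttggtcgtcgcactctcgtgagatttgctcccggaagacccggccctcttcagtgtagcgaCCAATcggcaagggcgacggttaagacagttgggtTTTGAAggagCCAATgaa
Ube2c: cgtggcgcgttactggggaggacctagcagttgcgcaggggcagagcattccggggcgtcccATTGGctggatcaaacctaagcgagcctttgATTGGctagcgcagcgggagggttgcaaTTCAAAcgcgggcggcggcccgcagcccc
In windows of 250 bases before to 50 after the start, TTTGAA occurred on either strand in 13 of the 17 mitosis genes with a RefSeq promoter (76.5%), against 18.1% of all 27025 promoters. CCAAT occurred in 16 of the 17 (94.1%), against 37.9% of all promoters. The motifs do not overlap each other in the 2 stretches shown. In Ube2c both CCAAT matches lie upstream of TTTGAA, while in Cdc20 1 lies upstream and 1 downstream of it. A match describes letters in a window and not a bound site.

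The DNA replication list was on the same side with smaller differences: 15 of 20 were apart and higher in batch 1, 0 in batch 2, and the median was -1.50. Ccne2, the cyclin that starts S phase, had 3.51, 3.06 and 5.17 TPM in the batch 2 controls, against 35.9 and 26.7 TPM in the batch 1 controls (-2.73). Rrm2, the S phase subunit of ribonucleotide reductase, had 9.71, 9.7 and 8.84 TPM in the batch 2 controls, against 80.1 and 44.8 TPM in the batch 1 controls (-2.55). Tk1, thymidine kinase, had a difference of -2.48, and the replication clamp Pcna, with 86.2, 90.7 and 85.6 TPM in the batch 2 controls and 189.6 and 163 TPM in the batch 1 controls (-0.998), missed the size needed by little. Of 8 cell cycle arrest genes, 3 were apart and higher in batch 2, the inhibitors Cdkn2c (2.11) and Cdkn1b (1.54) and the pocket protein Rbl2 (1.22). Cdkn1b had 144, 145 and 145 TPM in the batch 2 controls, against 52.9 and 45.6 TPM in the batch 1 controls. Cdkn1a, the inhibitor p21, was the 1 apart and higher in batch 1, with 122, 115 and 115 TPM in the batch 2 controls, against 339 and 365 TPM in the batch 1 controls (-1.58).

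Within each batch the mitosis genes also separated the controls from their knockouts, in opposite directions. All 21 passed as higher in the Drosha knockout (limma adjusted p under 0.05, median 1.19), and 0 passed as higher and 19 as lower in the Dicer1 knockout (median -1.84). Of all genes tested, 38.2% passed as higher in the Drosha knockout and 9.60% as lower in the Dicer1 knockout. As lower there, 7 passed without a filter on low TPM and 0 without either single Dicer1 knockout library (limma), where for these last fits the medians were -1.87 and -1.99. Ube2c had 38.7, 39.2 and 42.2 TPM in the Drosha knockout libraries, against 15.3, 14.5 and 13.4 TPM in the batch 2 controls (1.41, SE 0.06, limma adjusted p = 3.92e-06). It had 15.2 and 20.8 TPM in the Dicer1 knockout libraries, against 164 and 78.1 TPM in the batch 1 controls (-2.60, SE 0.36, limma adjusted p = 0.00888). Across the series the batch 1 controls held the 2 highest Ube2c values of the 10 libraries, and the batch 2 controls lay at the low end with the Dicer1 knockout libraries.

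The second large group was the heat shock chaperones, of which 14 of 16 were apart and higher in batch 1 and the other 2 were higher there without overlap (median -2.10). Of all 12295 genes, 5233 were higher in batch 1 without overlap. Hspa1b, an inducible HSP70 that is nearly silent in unstressed cells, had 14.9, 14 and 14.5 TPM in the batch 2 controls, against 1793 and 4746 TPM in the batch 1 controls (-7.56). Hspa1a, its near-identical neighbour, had 0.149, 0.0618 and 0.03003 TPM in the batch 2 controls, against 194 and 472 TPM in the batch 1 controls (-8.14), and the split of reads between these copies is uncertain. Hspb1, the small heat shock protein HSP25, had 0.107, 0 and 0 TPM in the batch 2 controls, against 52 and 154 TPM in the batch 1 controls (-6.45). Hspa1a and Hspb1 were thus below 1 TPM in every batch 2 control, where Hspa1b was present at a low level, and all 3 genes were far higher in both batch 1 controls. Hspa1a and Hspb1 entered through the batch 1 controls alone, so they could only be called higher there.

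Co-chaperones and constitutive members followed with smaller differences. Dnajb1, the HSP40 that works with HSP70, had 19.2, 17.3 and 18.2 TPM in the batch 2 controls, against 355 and 884 TPM in the batch 1 controls (-4.87). Hsph1, a nucleotide exchange factor for HSP70, had 41.7, 38.8 and 43.2 TPM in the batch 2 controls, against 295 and 587 TPM in the batch 1 controls (-3.31). Hsp90aa1, the inducible HSP90, had a difference of -2.25, where the constitutive Hsp90ab1 had -0.43 and the constitutive HSP70 Hspa8 -0.88. The mitochondrial pair Hspd1 (-1.56) and Hspe1 (-1.13) were both apart. Summed, the list held 0.428%, 0.433% and 0.429% of TPM in the batch 2 controls, against 1.02% and 1.75% in the batch 1 controls.

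The promoters of 2 of them are shown because they hold the element that heat shock factors are known to bind, here searched as GAANNTTC on either strand. Each is 150 bases before the start on the gene's strand from RefSeq (GRCm38.p6), Hspa1b at chr17:34959239-34959388 on the minus strand and Hspb1 at chr5:135887769-135887918 on the plus strand, with matches in capitals:
Hspa1b: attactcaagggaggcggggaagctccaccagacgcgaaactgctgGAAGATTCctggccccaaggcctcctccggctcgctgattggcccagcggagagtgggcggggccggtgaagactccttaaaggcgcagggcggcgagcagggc
Hspb1: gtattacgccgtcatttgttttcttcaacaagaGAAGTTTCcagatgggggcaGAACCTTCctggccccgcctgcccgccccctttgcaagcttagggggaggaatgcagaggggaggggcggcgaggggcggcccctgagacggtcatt
Of the 12 listed chaperones with a RefSeq promoter, 9 held the motif between 250 bases before and 50 after the start (75.0%), against 7.95% of all 27025 promoters. Dnajb1, with a difference of -4.87, was among the 3 without it. The same motif was in 2 of the 17 mitosis promoters (11.8%).

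The heat shock genes of batch 1 differed from their own knockout as well. Hspa1b had 90.8 and 86.8 TPM in the Dicer1 knockout libraries, against 1793 and 4746 TPM in the batch 1 controls (-5.02, SE 0.43, limma adjusted p = 0.00438), and without either Dicer1 knockout library its adjusted p exceeded 0.05, reaching 0.0866. Dnajb1 had 89.7 and 87 TPM in the Dicer1 knockout libraries, against 355 and 884 TPM in the batch 1 controls (-2.65, SE 0.40, limma adjusted p = 0.0106). In all, 6 of the 16 passed as lower and 1 as higher in the Dicer1 knockout, where 9.60% and 21.5% of all genes tested passed as lower and higher. Without batch 1 control replicate 1 the counts were 12 lower and 1 higher, without control replicate 2 they were 6 and 3, and without either single Dicer1 knockout library both were 0. The high values of Hspa1b were found in both batch 1 controls and in none of the other 8 libraries, where it ran from 12.5 to 90.8 TPM. In the Drosha knockout libraries it had 13.7, 12.5 and 12.8 TPM, close to the 14.9, 14 and 14.5 TPM of the batch 2 controls.

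Other stress programs lay on the batch 1 side too. Of 21 ATF4 and unfolded protein response genes, 11 were apart and higher in batch 1 and 1 apart and higher in batch 2 (10 and 2 without batch 1 replicate 1), with a median of -1.07. Atf3, a transcription factor induced by many stresses, had 0.71, 0.929 and 0.745 TPM in the batch 2 controls, against 50.02 and 122 TPM in the batch 1 controls (-5.47). Trib3, a pseudokinase downstream of ATF4, had a difference of -3.77, Ppp1r15a, which restores translation, one of -2.89, and Ddit3, the factor CHOP, one of -1.58. The members apart were mostly those of the ATF4 arm, together with amino acid synthesis genes such as Asns (-2.42) and Psat1 (-1.52). Chaperones of the endoplasmic reticulum were mixed. Hspa5, the lumenal HSP70 BiP, had 552, 520.0 and 554 TPM in the batch 2 controls and 721 and 912 TPM in the batch 1 controls (-0.58) and was not apart, and neither was Hsp90b1 (-0.36). The disulfide isomerase Pdia4 was the 1 member apart and higher in batch 2 (1.52), and the co-chaperone Dnajb9 was apart and higher in batch 1 (-1.07).

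Of 18 immediate early genes, 13 were apart and higher in batch 1 and 1, Klf2 (1.26), apart and higher in batch 2, with a median of -2.05. Fosl1, an AP-1 subunit, had 2.002, 2.71 and 3.54 TPM in the batch 2 controls, against 196 and 181 TPM in the batch 1 controls (-5.68). Egr1, a zinc finger factor induced within minutes of serum addition, had 23.8, 25.4 and 21.6 TPM in the batch 2 controls, against 268 and 539 TPM in the batch 1 controls (-3.96). Fosb had a difference of -3.3 and Fos one of -2.94. Batch 1 replicate 2 was again the higher of its pair for Egr1.

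Oxidative stress genes under NRF2 were apart and higher in batch 1 for 10 of 13, with a median of -1.92. Gclm, the modifier subunit of glutathione synthesis, had 17.6, 17.2 and 16.7 TPM in the batch 2 controls, against 125 and 199 TPM in the batch 1 controls (-3.13). Srxn1, sulfiredoxin, had 45.9, 42 and 41.7 TPM in the batch 2 controls, against 280.2 and 460.0 TPM in the batch 1 controls (-3.03). Hmox1, the haem oxygenase, had 364, 352 and 345 TPM in the batch 2 controls, against 745 and 1547 TPM in the batch 1 controls (-1.6). The metallothionein Mt2 had the largest gap of the list (-5.15). Gstm1, a glutathione transferase, was the 1 apart and higher in batch 2, with 367, 373 and 369.9 TPM in the batch 2 controls, against 109 and 93 TPM in the batch 1 controls (1.87).

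Glycolysis and hypoxia genes were apart and higher in batch 1 for 16 of 19, with 0 on the other side and a median of -1.66. Ero1a, an oxidase induced by hypoxia, had 19.6, 17.2 and 18 TPM in the batch 2 controls, against 366 and 566 TPM in the batch 1 controls (-4.57). Hk2, the inducible hexokinase, had 1.77, 1.63 and 1.82 TPM in the batch 2 controls, against 28.5 and 38.7 TPM in the batch 1 controls (-3.64). Ldha, lactate dehydrogenase, had 459, 464 and 466 TPM in the batch 2 controls, against 1389.6 and 1541 TPM in the batch 1 controls (-1.66). Along the pathway, Pgam1 (-1.74), Pgk1 (-1.62), Pkm (-1.42) and Eno1 (-1.22) were apart, and Tpi1 (-0.98) and Aldoa (-0.83) were not. In the Dicer1 knockout 15 of the 20 tested passed as higher still than the batch 1 controls and 0 as lower (limma adjusted p under 0.05), where 21.5% of all 12239 genes tested passed as higher. The 15 became 6 after median-ratio scaling, under which 1579 of the 12239 genes passed as higher, 5 without a filter on low TPM, 9 without the mean trend of limma and 0 without either single Dicer1 knockout library.

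The p53 list was less one-sided, with 8 of 17 apart and higher in batch 1, 1 apart and higher in batch 2 and a median of -0.91. Gdf15, a stress hormone, had 2.53, 2.26 and 2.75 TPM in the batch 2 controls, against 88.6 and 107 TPM in the batch 1 controls (-4.81). Mdm2, the ubiquitin ligase for p53, had 32, 33.1 and 28.8 TPM in the batch 2 controls, against 197 and 219 TPM in the batch 1 controls (-2.69). Sesn1, a sestrin that restrains mTORC1, went the other way, with 73.7, 73.6 and 75.5 TPM in the batch 2 controls, against 6.22 and 6.24 TPM in the batch 1 controls (3.38). Bax (-0.91), Bbc3 (-0.68) and Plk2 (-0.12) were not apart.

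Interferon-stimulated genes were apart and higher in batch 1 for 13 of 18, with a median of -2.47. The 13 became 7 without batch 1 replicate 1 and 9 without batch 1 replicate 2. Of the 18, 14 reached 1 TPM in all 5 EV libraries. Members that entered through the batch 1 controls alone, such as Usp18, could only be called higher there, so the count is partly fixed by the filter. Ifit1, an antiviral RNA-binding protein, had 1.09, 1.27 and 1.49 TPM in the batch 2 controls, against 87.8 and 36.5 TPM in the batch 1 controls (-4.66). Isg15, a ubiquitin-like modifier, had 11.2, 13.5 and 12.5 TPM in the batch 2 controls, against 150.3 and 103 TPM in the batch 1 controls (-3.23). Usp18, which removes it, had 0.858, 0.977 and 0.641 TPM in the batch 2 controls, against 50.1 and 29.2 TPM in the batch 1 controls (-4.43). Oasl2 had a difference of -4.49. In contrast to the heat shock genes, batch 1 replicate 1 was the higher of its pair. The factor Irf1 (0.39) was not apart.

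The promoter of Isg15 is shown for its run of interferon response element cores, searched as TTTC, any 2 bases and TTTC again, on either strand. The 150 bases before its start are on the minus strand at chr4:156200819-156200968 of GRCm38.p6, from RefSeq, with 3 overlapping matches, here on the complementary strand, in capitals:
Isg15: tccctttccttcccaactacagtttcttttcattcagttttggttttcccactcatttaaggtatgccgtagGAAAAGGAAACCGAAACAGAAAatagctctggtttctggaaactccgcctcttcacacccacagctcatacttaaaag
Of the 14 interferon list genes with a RefSeq promoter, 8 held the motif (57.1%), against 3.49% of all 27025 promoters.

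Cytokines and chemokines were all apart among the 13 entered, 11 higher in batch 1 and 2 higher in batch 2, with a median of -3.84. Only 10 of the 17 listed reached 1 TPM in all 5 EV libraries. A gene that entered through the libraries of 1 batch alone can only be higher in that batch, so the count is partly fixed by the filter. The 11 became 8 without batch 1 replicate 1, and also 8 without batch 1 replicate 2. Ccl2, the monocyte attractant, had 17.8, 14.9 and 15.4 TPM in the batch 2 controls, against 607 and 537 TPM in the batch 1 controls (-5.07). Ccl5 had 4.16, 6.6 and 4.46 TPM in the batch 2 controls, against 226 and 333 TPM in the batch 1 controls (-5.53). Cxcl10, itself interferon-inducible, had 0.404, 0.0838 and 0.32 TPM in the batch 2 controls, against 69.8 and 39.7 TPM in the batch 1 controls (-5.41). Lcn2 (-4.8) and Cxcl1 (-4.56), both induced through NF-κB in many cells, were of like size. The 2 on the batch 2 side were the niche chemokine Cxcl12 described above and Il1rn, the interleukin 1 receptor antagonist, with 137, 130.2 and 150.4 TPM in the batch 2 controls, against 11.8 and 8.31 TPM in the batch 1 controls (3.68).

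**Figure D4:**
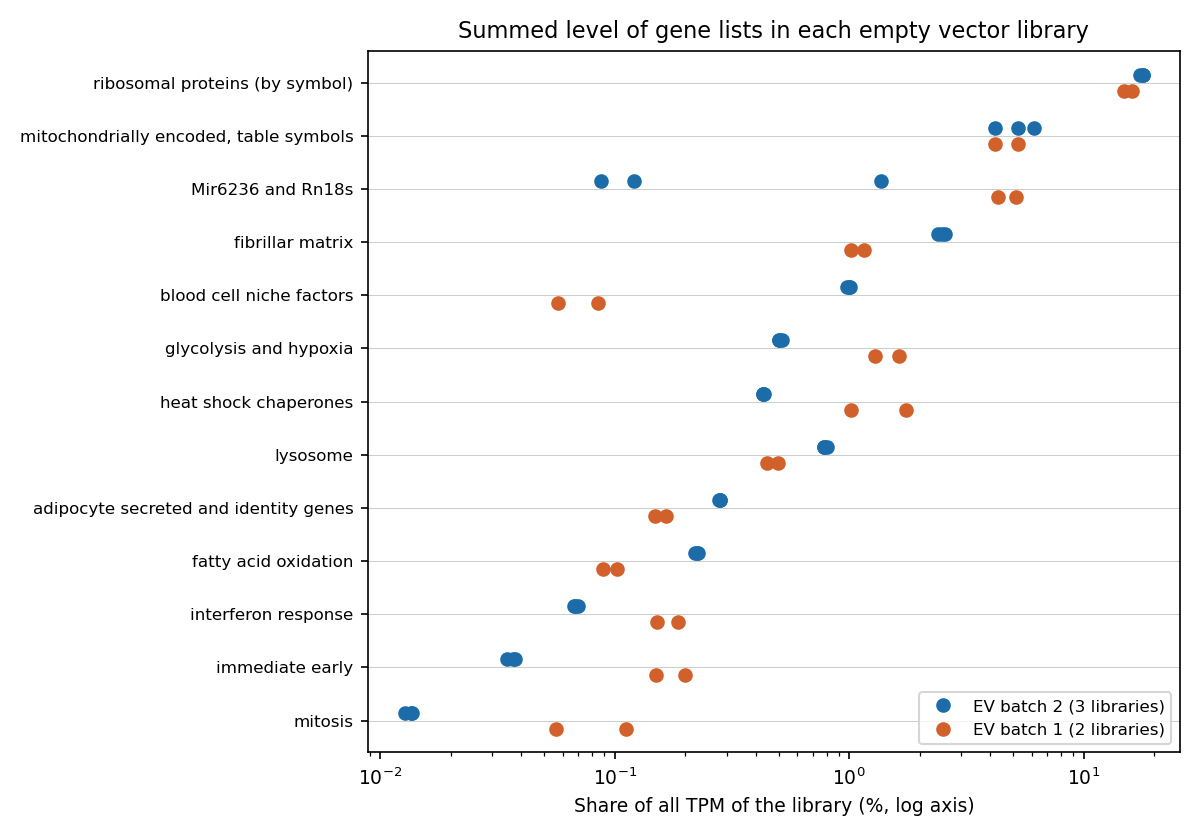
Summed TPM of each gene list as a percentage of all TPM (log axis) in each EV library, 1 point per library, batch 2 controls above batch 1 controls. Niche and fibrillar matrix sums are higher in batch 2, and mitosis, heat shock and glycolysis sums are higher in batch 1.

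The 12 genes furthest apart in each direction included matrix, hormone and stress genes. On the batch 2 side, Aspn and Ogn, the small leucine-rich proteoglycans asporin and osteoglycin, led. Aspn had 717, 714 and 741 TPM in the batch 2 controls, against 2.46 and 0.817 TPM in the batch 1 controls (8.18), and Ogn had 3192, 3223 and 3349 TPM in the batch 2 controls, against 27.1 and 14.1 TPM in the batch 1 controls (7.3). Cdh11, the cadherin of mesenchymal cells, had 163, 162 and 162 TPM in the batch 2 controls, against 0.686 and 0.512 TPM in the batch 1 controls (6.68), 271-fold by the ratio of means. Cdh11 was therefore below 1 TPM in both batch 1 controls. Vim, the intermediate filament of mesenchymal cells, was not apart (0.05), and the mesenchymal progenitor markers above lay on both sides. Ecrg4 (6.74), Sparcl1 (6.45), Nid2, Abi3bp (6.35), Postn, Scara5 (5.42) and Enpep (5.37) followed, together with 2 imprinted genes. Mest had 91, 87.2 and 89.2 TPM in the batch 2 controls, against 2.03 and 0.721 TPM in the batch 1 controls (5.3), and Igf2, the fetal growth factor, had 63.8, 63 and 76 TPM in the batch 2 controls, against 0.487 and 1.09 TPM in the batch 1 controls (5.28).

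H19, the noncoding RNA that shares a control region with Igf2 and is expressed from the other parental copy, was on the same side, with 43.6, 46.3 and 46.7 TPM in the batch 2 controls, against 1.05 and 0.585 TPM in the batch 1 controls (4.69). Of 10 imprinted genes entered, a list drawn up after values had been seen, 4 were apart and higher in batch 2 and 1 apart and higher in batch 1 (0 without batch 1 replicate 2), with a median of 0.57. Gnas (0.47) and Snrpn (0.10) were not apart.

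On the batch 1 side, 2 members of the proliferin family of prolactin-like hormones led. Prl2c3 had 0.421, 0.57 and 0.807 TPM in the batch 2 controls, against 808 and 1263 TPM in the batch 1 controls (-9.31), and Prl2c2 had 5.82, 7.1 and 6.26 TPM in the batch 2 controls, against 2552 and 3115 TPM in the batch 1 controls (-8.58). The copies are near-identical, so their sum is surer than either value. Hmga1, a chromatin protein of growing cells, had 18.8, 17.3 and 18.2 TPM in the batch 2 controls, against 1286 and 1386 TPM in the batch 1 controls (-6.13). Ptgs2, the inducible cyclooxygenase, had 0.27, 0.279 and 0.42 TPM in the batch 2 controls, against 73.9 and 90.7 TPM in the batch 1 controls (-5.97). Ghrh, the hypothalamic releasing hormone, was listed at 0 in all 3 batch 2 controls and at 43 and 87.1 TPM in the batch 1 controls. Arc (-6.73), Ndufa4l2 (-6.23), Prkg2 (-6.13) and Serpinb9e (-5.95) completed the 12 with the 3 heat shock genes above.

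Secreted growth factors were divided, 5 of 13 apart and higher in batch 2 and 6 apart and higher in batch 1, with a median of -0.16 that turned to 0.05 without a filter on low TPM. Inhba, the activin subunit that holds fat progenitors back, had 1.34, 1.82 and 1.54 TPM in the batch 2 controls, against 61.5 and 80.4 TPM in the batch 1 controls (-4.8). Dkk3 had 359, 348 and 363 TPM in the batch 2 controls, against 36.7 and 19.2 TPM in the batch 1 controls (3.7). Wnt5a (2.9) and Tgfb3 (1.52) were on the batch 2 side, and Pdgfa (-2.05) and Tgfb1 (-1.13) on the batch 1 side.

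Lysosomal genes were modestly higher in batch 2, with 5 of 19 apart, 0 on the other side and a median of 0.75. Hexa, a hexosaminidase, had 222, 222 and 209 TPM in the batch 2 controls, against 73.4 and 78.2 TPM in the batch 1 controls (1.51), and Grn, progranulin, had a difference of 1.5. Hox genes, which keep the positional origin of a stromal line, were apart about as often as genes in general. Of 15 entered, 11 did not differ enough, 2 were apart on each side, and the median was 0.14. Among all 12295 genes, 8742 were not apart, 13.0% were apart and higher in batch 2, and 15.9% apart and higher in batch 1. Hoxa2 (1.47) and Hoxa10 (1.02) were higher in batch 2, and Hoxb6 (-1.54) and Hoxb2 (-1.22) in batch 1.

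The microRNA machinery, which the knockouts target, had members apart on both sides between the controls. Of 15 genes, 1 was apart and higher in batch 2 and 4 apart and higher in batch 1, with a median of -0.32 that came to 0.0012 without batch 1 replicate 1. Over all genes, 13.0% and 15.9% were apart on these sides, with a median of -0.05. Dicer1 had 9.52, 8.49 and 9.21 TPM in the batch 2 controls, against 23.8 and 17.3 TPM in the batch 1 controls (-1.08). Drosha, by contrast, was the higher in batch 2 (0.61) without being apart, and Dgcr8, its RNA-binding partner, had 19.7, 20.9 and 16 TPM in the batch 2 controls and 32.4 and 18.7 TPM in the batch 1 controls, which overlap. Tarbp2, a partner of Dicer, was higher in batch 1 (-1.18). Ago2, the slicing argonaute, had 14.2, 12.8 and 15.1 TPM in the batch 2 controls, against 25.4 and 33.2 TPM in the batch 1 controls (-1.003). Without batch 1 replicate 2 the counts were 0 and 2.

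Markers of cell types that a stromal culture could also hold were mostly near 0. Of 12 macrophage markers, 4 were listed at 0 in all 5 EV libraries and 3 entered, and the list summed to 28.1 to 30.3 TPM in the batch 2 controls and 29.1 to 37.2 TPM in the batch 1 controls. Lyz2, lysozyme, had 19.7, 19.4 and 19.5 TPM in the batch 2 controls, against 0.546 and 0 TPM in the batch 1 controls (4.05). Cd68, a lysosomal protein that is not limited to macrophages, had 2.18, 0.925 and 1.8 TPM in the batch 2 controls, against 11.8 and 19.6 TPM in the batch 1 controls (-2.66). The pan-leukocyte gene Ptprc and the macrophage receptor Adgre1 were near 0, so the defining markers were missing where single members were present. None of the 7 endothelial markers entered, with sums of 0.406 to 0.649 TPM in the batch 2 controls and 1.80 to 4.33 TPM in the batch 1 controls. Of 5 skeletal muscle genes 1 entered, Acta1, at 0.72, 0.402 and 0.55 TPM in the batch 2 controls, against 5.45 and 3.6 TPM in the batch 1 controls. Of 10 thermogenic genes 2 entered, led by Cox7a1 with 0.346, 0.591 and 0.681 TPM in the batch 2 controls, against 9.98 and 15.3 TPM in the batch 1 controls (-3.13).

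The 2 batch 1 controls were not alike, and the spread between them stands beside every difference above. Batch 1 replicate 2 exceeded replicate 1 by a log2 difference of at least 1 at 148 genes (1.20%) and was lower by as much at 291 genes (2.37%), and the range over the 3 batch 2 controls reached 1 at 238 genes (1.94%). Beside a median of -0.09 over all genes, replicate 2 minus replicate 1 had a median of -0.98 over the mitosis genes (lower at 21 of 21), -0.62 over DNA replication (lower at 20 of 20) and -0.57 over the interferon genes (lower at 17 of 18). It was 0.64 over the heat shock genes (higher at 16 of 16) and 0.32 over glycolysis and hypoxia (higher at 19 of 19). So replicate 2 had less of the cell cycle RNA and more of the heat shock RNA than replicate 1, and both were still on the far side of all 3 batch 2 controls for these lists. Among single genes, Cmpk2 (-2.59), an interferon-inducible kinase, and the histone gene H2ac13 (-2.96) were among the furthest down in replicate 2, and Hspb1 (1.55) and Acsm3 (3.06), an acyl-CoA synthetase, among the furthest up. With small RNA rows included, 5 of the 5 furthest down were rows of snoRNAs or microRNA hairpins, whose level in an mRNA library is uncertain.

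Most differences between the controls were also present between the knockouts of the same batches, which are other libraries but share the batch and the table. Of the 1596 genes apart and higher in the batch 2 controls, 1263 (79.1%) were apart the same way between the 3 Drosha knockout and the 2 Dicer1 knockout libraries and 0 the opposite way, where 15.5% of 12325 genes were apart and higher in the Drosha knockout. Of the 1957 apart and higher in the batch 1 controls, 1190 (60.8%) were apart the same way and 23 the opposite way, where 15.8% of genes were apart and higher in the Dicer1 knockout. With controls and knockouts pooled, 1532 of the 1596 (96.0%) and 1544 of the 1957 (78.9%) had no overlap between the 6 libraries of batch 2 and the 4 of batch 1. The controls that chose these genes are among those libraries, and the pooled share over all genes was not computed. Between the controls alone, 80.1% of all genes had no overlap, so high shares are largely built in.

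Cdh11 is an example of a gene whose levels lay far apart by batch, with 176, 172 and 182 TPM in the Drosha knockout and 163, 162 and 162 TPM in the batch 2 controls, against 0.26 and 0.266 TPM in the Dicer1 knockout and 0.686 and 0.512 TPM in the batch 1 controls. Prl2c2 had 8.23, 7.89 and 8.56 TPM in the Drosha knockout and 5.82, 7.1 and 6.26 TPM in the batch 2 controls, against 5776 and 5873 TPM in the Dicer1 knockout and 2552 and 3115 TPM in the batch 1 controls. For both genes all 6 libraries of batch 2 lay on 1 side of all 4 of batch 1.

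The lists did not all keep their offset. The blood cell niche list had a median of 1.98 between the knockouts and 1.61 between the controls, and fibrillar matrix 1.53 and 1.21. Heat shock chaperones had -1.35 between the knockouts and -2.10 between the controls, and interferon genes -1.42 and -2.47. The mitosis list had 0.71 between the knockouts, where 6 of its 21 genes were apart and higher in the Drosha knockout and 0 in the Dicer1 knockout, and -2.57 between the controls. The DNA replication list had -0.0035 between the knockouts and -1.50 between the controls. Adipocyte identity genes had 2.62 between the knockouts and 0.87 between the controls. Adipoq, for one, had 106, 107 and 118 TPM in the Drosha knockout libraries and 0.148 and 0.164 TPM in the Dicer1 knockout libraries, so its batch 1 controls stood between these.

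**Figure D5:**
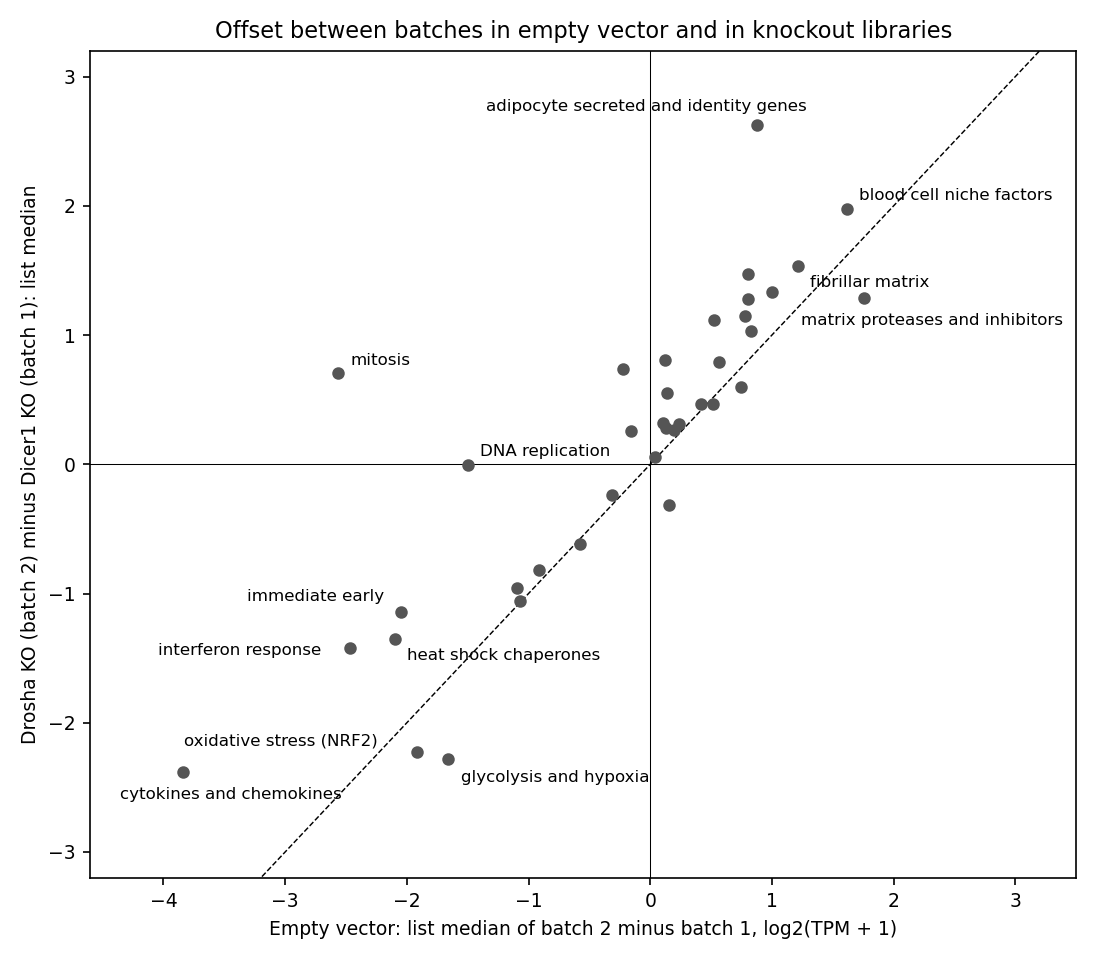
Median difference of each gene list between Drosha knockout (batch 2) and Dicer1 knockout (batch 1) libraries (vertical axis) against its median between the batch 2 and batch 1 EV controls (horizontal axis), 1 point per list, on the log2(TPM + 1) scale with the line of equality dashed. Mitosis, at -2.57 between the controls, lies at 0.71 between the knockouts, DNA replication, at -1.50, lies near 0, and adipocyte identity genes, at 0.87, lie at 2.62.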

How the data were processed

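Bead-captured mRNA of OP9 cells was sequenced, and per the submitters' processing notes kallisto 0.48.0 was used. The authors deposited 1 table of TPM per knockout experiment. For the transcript index, genome build and read trimming, nothing is given in the sources used here. Either table had 55357 rows, and rows without a symbol (22339 in the Dicer1 table with 4.25% to 6.22% of TPM, 22369 in the Drosha table with 4.10% to 5.67%) were left out, symbols were summed over rows, and 32344 symbols found in both tables were joined. TPM carries no depth, so no counting interval is given.

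Values were taken as log2(TPM + 1). Genes entered the comparison of controls with TPM of at least 1 in at least 2 of the 5 EV libraries, and were called apart with no overlap and a mean difference of at least 1. Knockouts were compared with the EV libraries of their own batch by limma 3.58.1 in R 4.3.3 with a mean trend and Benjamini-Hochberg adjustment, over genes with TPM of at least 1 in at least 3 of 6 (Drosha) or 2 of 4 (Dicer1) libraries, after a check on simulated data. Their p-values measure the spread between libraries, which may be technical. Joining, counts and figures used Python 3.11.15, numpy 2.4.6, pandas 2.3.3 and matplotlib 3.10.9. Motifs were searched in RefSeq promoters (GRCm38.p6) on both strands. Alternatives varied the pseudocount, the filter, the scaling, the size threshold, the number of top genes and the libraries.

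Genes named are Pparg, Fabp4, Adipoq and Lpl, the 15 most abundant common genes, the 12 largest differences each way at a mean of at least 10 TPM, up to 3 members per list called apart, the 5 largest differences each way within batch 1, and the 3 largest knockout changes each way among common genes. Other list members are named as examples chosen after their values were seen. Results for some genes under this rule are not reported here. The members, the 38 gene lists and 4 lists added later were chosen with earlier results of these data known.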

Additional observations from a re-analysis of the deposited data

How the results depend on the processing

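The differences between the controls carry no test, and no paired analysis was possible for them because the batches share neither a table nor a test. Requiring a size of 2 gave 416 genes apart and higher in batch 2 and 599 apart and higher in batch 1, and leaving out single libraries gave 1527 to 1845 and 1513 to 1988. Common abundant genes numbered 33 in the top 50, 156 in the top 200 and 78 to 79 without single libraries. Within batch 1, replicate 2 was higher and lower by at least 1 at 297 and 529 genes with a pseudocount of 0.1 and at 44 and 137 with a minimum TPM of 5. In the limma fits, the common genes higher in the Drosha knockout numbered 2 after median-ratio scaling and 6 to 7 without single libraries, with 55 to 63 lower. Those higher in the Dicer1 knockout numbered 3 after median-ratio scaling, 0 without a filter on low TPM (5 at an unadjusted p under 0.05) and 0 to 6 without single libraries. Those lower in the Dicer1 knockout numbered 2 without a filter, 18 without the mean trend and 0 to 49 without single libraries. Both Dicer1 counts were 0 without Dicer1 knockout replicate 1 and without replicate 2 (limma), where 5 higher and 19 or 24 lower had an unadjusted p under 0.05. The cause was not tested. Deviations of same-numbered libraries from their group means correlated at -0.01, 0.03 and -0.02 in the Drosha table and -0.09 in the Dicer1 table. With 2 libraries per group, both Dicer1 replicates give the same value by construction. These values gave no sign of pairing by replicate number, but so few libraries cannot show that they were unpaired. With the replicate block, 8 common genes were higher and 58 lower in the Drosha knockout, and 5 higher and 26 lower in the Dicer1 knockout.

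Every one of the 28 named genes tested across 377 alternative values stayed on its side. These 28 are Pparg, Fabp4, Adipoq, Lpl and the 12 largest differences each way. The largest differences were chosen for their size, so that they kept their side says little, and the other genes named were not followed in this way. Medians of 8 gene lists changed sign in at least 1 of the alternatives run: adipogenic transcription factors, thermogenic, chondrocyte, macrophage, growth factor and Wnt, osteoblast, basement membrane and microRNA machinery. An alternative that joins the tables by Ensembl ID was not run, since 1 table gives symbols only.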
